A study of Mus musculus with 40 samples.

Results

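The 10 genes described here are the glucocorticoid receptor gene Nr3c1 and a set of genes known to be induced by the receptor: Fkbp5, Tsc22d3, Sgk1, Zbtb16, Klf9, Mt1, Mt2, Dusp1 and Errfi1. They were given as a list of names, with no threshold on a measured value, and all 10 were found among 28467 genes of the bulk table and among 32285 genes of the nucleus table. All 10 passed the filter on low counts at 24, 48 and 72 h. Each was compared between the remaining kidney after nephrectomy and the kidney after sham surgery.

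Glucocorticoids, corticosterone in mice, bind a receptor that is held ready by the chaperone Hsp90 and its partners. The hormone-bound receptor moves to the nucleus and binds short palindromic DNA elements, from which it raises the transcription of target genes. Some of these targets damp the response in turn, and in the kidney others act on ion transport, gluconeogenesis and growth factor signalling.

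The kidneys came from male C57BL/6 mice of 8 to 12 weeks, and no engineered allele is named in the labels. In the nephrectomy group (UNx) the left kidney was removed, and in the sham group the same surgery was done without removal. All mice therefore had anaesthesia, surgery and the opioid buprenorphine, and the right kidney was measured. Bulk RNA-seq covered 6 sham and 6 UNx mice at each of 24, 48 and 72 h, and single-nucleus RNA-seq covered 2 sham and 2 UNx mice at 24 h, 40 different mice in all. Per the labels, bulk libraries of 24 h were batch 1 and those of 48 and 72 h batch 2, so 24 h and batch 1 cannot be told apart. Each group of nuclei had 1 mouse in batch 3 (replicate 1) and 1 in batch 4 (replicate 2).

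Bulk libraries held between 14.9 M and 24.1 M estimated counts, and values are given as CPM, the count relative to the library's total, scaled between libraries with TMM factors. UNx replicates 1 to 5 of 48 h stood apart from the other libraries of their batch: 25.8 to 26.4% of their counts came from mitochondrially encoded genes, against 15.2% in UNx replicate 6 and a median of 14.7% in sham. A profile score, computed from pseudogenes and set to 0 at the mean of the later shams and to 1 at the mean of the 24 h shams, was 0.640 to 0.717 in these 5 libraries and 0.00628 in replicate 6. At 24 h it was 0.958 to 1.04 in sham and 0.674 to 0.884 in UNx, so at 24 and 48 h the score moved with the group. The labels put all libraries of 48 h in batch 2, and what sets these 5 libraries apart cannot be told apart from the effect of nephrectomy at 48 h. Called results of 24 and 48 h are therefore also given with the score as a covariate in a fit of all 36 libraries, and those of 48 h with UNx replicate 6 alone. Within groups the score varied little, except for UNx replicate 6 of 48 h and, less so, UNx replicate 6 of 24 h (0.884). The covariate therefore rests largely on replicate 6 of 48 h, and at 48 h these checks are not independent of each other. Marker genes of the proximal tubule S1 segment, the main cell type of the kidney, summed to between 6808 and 10003 CPM in every library. Other marker lists moved with the groups at 48 h. Of 4 markers of the S2 segment, 3 were called higher in UNx, with sums of 2331 to 2789 CPM in sham and 2731 to 4549 CPM in UNx, and of 4 fibroblast markers 2 were called lower, with sums of 128 to 207 and 65.0 to 190 CPM. Their part in the 48 h results was not tested. Adrenal cortex markers, of which 2 of 4 were measured, summed to at most 1.08 CPM. In bulk tissue, fewer cells of a type and less RNA per cell cannot be told apart.

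Of the 10 genes, 2 were lower in UNx at 24 h (Mt1 and Dusp1), 2 were higher (Mt1 and Errfi1) and 2 lower (Nr3c1 and Tsc22d3) at 48 h, and none passed the test at 72 h, where 4 had an unadjusted p under 0.05. The test was edgeR's quasi-likelihood test with Benjamini-Hochberg adjustment over all genes, called at an adjusted p under 0.05. The same rule called 27.3% of 14104 genes at 24 h, 32.9% of 14280 at 48 h and 1.71% of 14556 at 72 h. Counted in 1 direction, the shares were 14.2% higher and 13.1% lower at 24 h, 16.9% higher and 16% lower at 48 h, and 1.21% higher and 0.502% lower at 72 h. The members' counts of calls were thus at or near the background. An unadjusted p under 0.05 at 72 h (edgeR) was found for 4 of the 10 members and for 2515 of 14556 genes. With the profile score as a covariate no member was called at any time, while 11.6%, 0.106% and 2.32% of genes were called at the 3 times in the fit of 36 libraries and 0.567%, 0% and 0.598% in fits within a time. Sham and UNx did not overlap in 1 member at 24 h, 1 at 48 h and 0 at 72 h, against 10.3%, 11.2% and 1.94% of all genes.

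**Figure D1:**
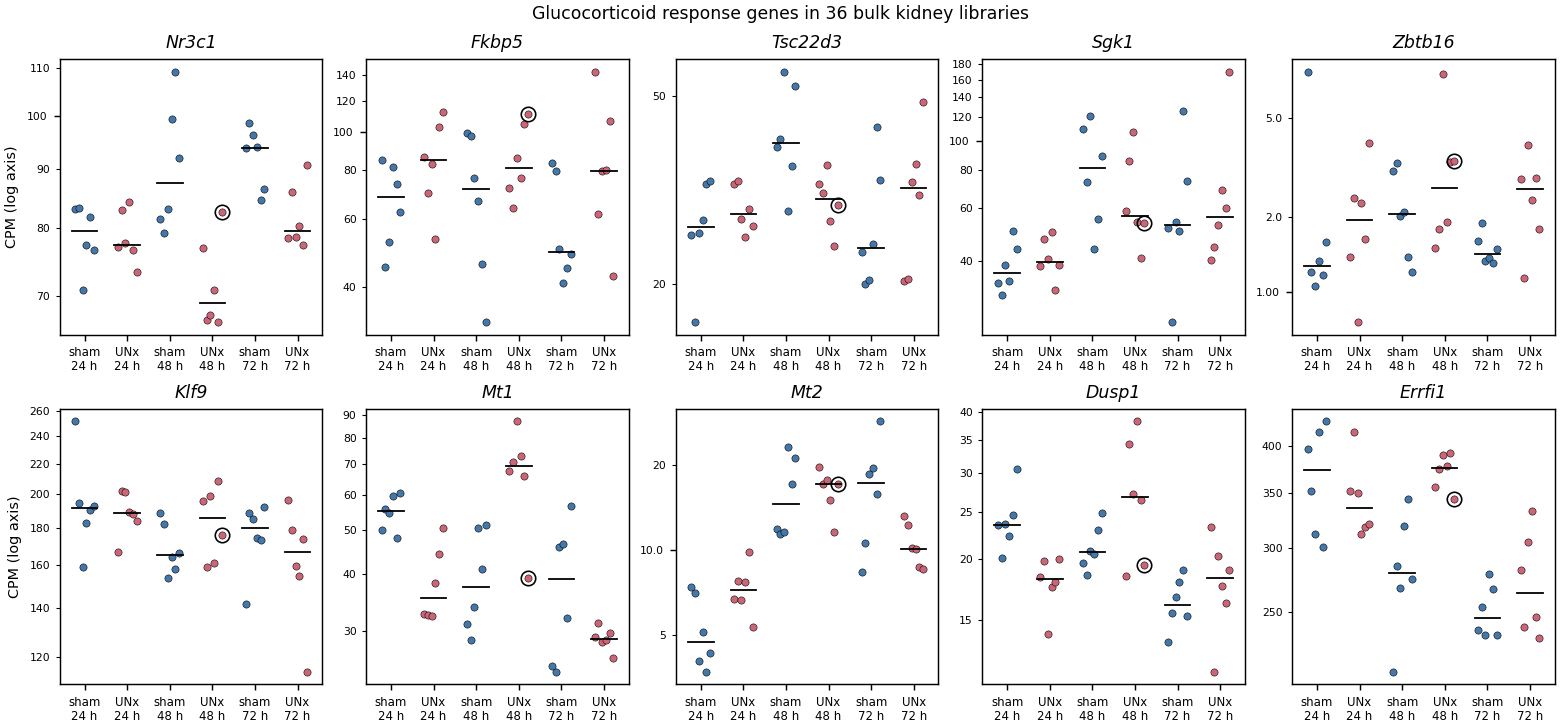
CPM (log axis, its range differs by panel) of the 10 genes in each of 36 bulk libraries, sham in blue and UNx in red, 6 mice per group, with group medians as lines; the ring marks UNx replicate 6 of 48 h. Dusp1 at 24 h and Errfi1 at 48 h are the panels where sham and UNx do not overlap, and the ringed library lies among the shams for Mt1, Nr3c1 and Dusp1.

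Nr3c1 encodes the receptor itself. At 24 h its lowest, median and highest levels were 70.9, 79.6 and 83.3 CPM in sham and 73.3, 77.4 and 84.3 CPM in UNx. The groups lay on each other, and the fitted log2 fold change was 0.0072 (SE 0.054, adjusted p = 0.935, edgeR). At 48 h the levels were 79.3, 87.6 and 109 CPM in sham and 66.4, 69.0 and 82.7 CPM in UNx. The 5 UNx libraries with a high profile score were all below the lowest sham, and replicate 6 was not. The receptor gene fell by 0.36 in log2 units at 48 h (edgeR, SE 0.088, adjusted p = 0.00769). With the score as a covariate the value was -0.041 (SE 0.10, adjusted p = 0.879), and with UNx replicate 6 alone it was -0.15 (SE 0.17, adjusted p = 0.719). At 72 h, where no library stood apart by the score, levels were 84.6, 93.9 and 98.7 CPM in sham and 77.4, 79.6 and 90.7 CPM in UNx. All 6 UNx libraries were below the sham mean and 4 below the lowest sham, and the fitted log2 change was -0.18 (SE 0.055, adjusted p = 0.116, edgeR). This value passed the threshold without UNx replicate 6 (-0.22, adjusted p = 0.0275) and in limma voom with sample weights (-0.22, adjusted p = 0.0170). With the score as a covariate it was -0.14 (adjusted p = 0.209) over 36 libraries and -0.066 (adjusted p = 0.664) within 72 h.

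Fkbp5 encodes a co-chaperone that lowers the receptor's affinity for hormone and is induced by it. Its levels at 24 h were 45.1, 68.0 and 84.5 CPM (lowest, median, highest) in sham and 53.2, 84.6 and 113 CPM in UNx. At 48 h they were 32.6, 71.4 and 99.3 CPM in sham and 64.0, 81.0 and 111 CPM in UNx. At 72 h they were 40.9, 49.4 and 83.5 CPM in sham and 42.8, 79.6 and 143 CPM in UNx. At each time 5 of 6 UNx libraries were above the sham mean, but the groups overlapped broadly. The log2 fold changes were 0.36 (SE 0.17), 0.28 (SE 0.24) and 0.55 (SE 0.26), with adjusted p of 0.141, 0.384 and 0.299 in edgeR, so none passed the test. With the covariate they were 0.33, 0.32 and 0.57 over 36 libraries but 1.03, 0.52 and 0.22 in fits within a time, none of them called. At 24 h the value passed without UNx replicate 4 (0.457, adjusted p = 0.0407). That library also had 215 CPM of summed adipocyte markers, against at most 0.890 CPM in the shams of 24 h, and the part of this in the result was not tested.

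Tsc22d3, also called GILZ, is an anti-inflammatory leucine zipper protein and a widely used readout of receptor activity. At 24 h levels were 16.6, 26.5 and 33.0 CPM in sham and 25.2, 28.1 and 33.0 CPM in UNx, and the fitted log2 change was 0.13 (SE 0.13, adjusted p = 0.494, edgeR). At 48 h they were 28.5, 39.8 and 56.3 CPM in sham and 24.1, 30.3 and 35.7 CPM in UNx. All 6 UNx libraries were below the sham mean and 2 were below the lowest sham. Tsc22d3 fell by 0.50 in log2 units at 48 h (edgeR, SE 0.15, adjusted p = 0.0188). The value kept its size but not its call with the covariate (-0.54, SE 0.35, adjusted p = 0.449) and with UNx replicate 6 alone (-0.53, SE 0.33, adjusted p = 0.488). At 72 h levels were 20.0, 23.9 and 43.0 CPM in sham and 20.3, 31.9 and 48.5 CPM in UNx, and the fitted log2 change was 0.19 (SE 0.24, adjusted p = 0.738). The sham groups of the same labelled batch differed by as much as the called change: sham of 72 h minus sham of 48 h was -0.62 (SE 0.19, unadjusted p = 0.00275, adjusted p = 1.00). No gene was called between these shams (0% of 15093, with 708 at an unadjusted p under 0.05).

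Sgk1 encodes a kinase that raises sodium channel activity in the distal nephron and answers to both glucocorticoids and aldosterone. Levels at 24 h were 30.9, 36.4 and 50.4 CPM in sham and 32.0, 39.7 and 49.7 CPM in UNx (log2 fold change 0.11, SE 0.12, adjusted p = 0.548). At 48 h they were 43.7, 81.4 and 121 CPM in sham and 40.7, 56.2 and 107 CPM in UNx (-0.32, SE 0.26, adjusted p = 0.363). At 72 h they were 25.0, 52.7 and 126 CPM in sham and 40.1, 56.1 and 170 CPM in UNx (0.19, SE 0.40, adjusted p = 0.856, all edgeR). The spread within groups of 48 and 72 h was wider than any difference between them, and without UNx replicate 6 the 72 h value was -0.27. With the covariate the 24 and 48 h values were 0.22 and -0.54, and with UNx replicate 6 alone the 48 h value was -0.63, none of them called.

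The Sgk1 promoter is shown because it holds the only exact match to the receptor's element among the members searched. RefSeq windows of the 250 bases before a start site (GRCm38.p6) were found for 8 of the 10 genes, several of them with more than 1 window. They were searched on both strands for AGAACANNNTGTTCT, with up to 2 mismatches over its 12 defined letters. Of 32851 windows searched, which leave out 1 chromosome, 1.56% held such a match, and 3 windows (0.00913%) held an exact one. Among 16 windows of the members only Sgk1 windows matched, 1 exactly and 1 with 2 mismatches. Sgk1 had more windows than any other member, and no window of Nr3c1 or Zbtb16 was searched. The exact match begins 189 bases before the start of a Sgk1 transcript, in chr10:21993640-21993889 on the plus strand, in capitals here.
Sgk1: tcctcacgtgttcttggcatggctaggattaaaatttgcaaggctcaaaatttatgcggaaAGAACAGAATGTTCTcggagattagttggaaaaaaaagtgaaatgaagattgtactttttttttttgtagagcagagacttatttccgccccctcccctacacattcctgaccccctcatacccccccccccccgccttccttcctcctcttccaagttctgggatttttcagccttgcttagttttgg
The Tsc22d3 and Fkbp5 windows held no match to the whole element, which says only that these letters are not in these windows.

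Zbtb16 and Klf9 encode zinc finger transcription factors, Klf9 also acting in glucocorticoid feedback. Zbtb16 was low. At 24 h it was at 1.06, 1.27 and 7.69 CPM in sham and 0.762, 1.96 and 3.97 CPM in UNx, with sham replicate 1 alone above 1.59. The log2 fold change was -0.21 (SE 0.50, adjusted p = 0.787) and became 0.705 without that library. At 48 h levels were 1.21, 2.07 and 3.29 CPM in sham and 1.50, 2.63 and 7.50 CPM in UNx (0.56, SE 0.37, adjusted p = 0.261), with 0.29 under the covariate and 0.60 with UNx replicate 6 alone. At 72 h they were 1.31, 1.43 and 1.89 CPM in sham and 1.14, 2.59 and 3.91 CPM in UNx (0.72, SE 0.24, adjusted p = 0.143, edgeR). Of the 72 h UNx libraries, 4 were above the highest sham and replicate 2 was below the lowest, and without replicate 2 the value was 0.871 with an adjusted p of 0.0410. Klf9 levels were between 159 and 252 CPM in sham and between 167 and 202 CPM in UNx at 24 h, with medians of 192 and 189 CPM. At 48 h the medians were 165 and 186 CPM and at 72 h 180 and 167 CPM. Its log2 fold changes of -0.040, 0.10 and -0.12 were about the size of their SEs (0.087, 0.082 and 0.11), with adjusted p of 0.771, 0.365 and 0.622 in edgeR. With the covariate they were -0.012, 0.043 and -0.12.

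Mt1 and Mt2 encode metallothioneins, small cysteine-rich proteins that bind zinc and copper and are induced by metals as well as by glucocorticoids. Their annotated transcripts shared 0 words of 31 bases with each other, so reads of the genes can be told apart. Mt1 at 24 h was at 48.2, 55.2 and 60.5 CPM in sham and 32.4, 35.5 and 50.6 CPM in UNx. The 5 UNx libraries below the lowest sham were replicates 1 to 5, while replicate 6, which also had the highest profile score of its group (0.884), overlapped the shams. Mt1 fell by 0.50 in log2 units at 24 h (edgeR, SE 0.11, adjusted p = 0.00343), against -0.14 with the covariate (SE 0.19, adjusted p = 0.725). At 48 h levels were 28.6, 37.5 and 51.5 CPM in sham and 39.2, 69.2 and 87.2 CPM in UNx. UNx replicates 1 to 5 were all above the highest sham, at 65.8 to 87.2 CPM, and replicate 6 was the library at 39.2 CPM, near the sham median. Mt1 rose by 0.75 in log2 units at 48 h (edgeR, SE 0.18, adjusted p = 0.00672), but the value was -0.016 with the covariate (SE 0.28, adjusted p = 0.987) and -0.018 with UNx replicate 6 alone (SE 0.31, adjusted p = 0.984). At 72 h levels were 24.4, 39.0 and 56.5 CPM in sham and 26.1, 28.8 and 31.1 CPM in UNx. All 6 UNx libraries were below the sham mean but none below the lowest sham (-0.43, SE 0.18, adjusted p = 0.242).

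Mt2 at 24 h was at 3.72, 4.72 and 7.40 CPM in sham and 5.33, 7.23 and 9.86 CPM in UNx. All 6 UNx libraries were above the sham mean (0.48, SE 0.18, adjusted p = 0.0625, edgeR), and the value passed in the DESeq2 Wald test (adjusted p = 0.0476) and in limma voom (adjusted p = 0.0215). It also passed without sham replicate 1, sham replicate 2 or UNx replicate 6, with adjusted p of 0.0221, 0.0332 and 0.0329. With the covariate it did not pass, at 0.40 (adjusted p = 0.426) over 36 libraries and -0.44 (adjusted p = 0.868) within 24 h. At 24 h the metallothionein genes had opposite signs, Mt1 lower and called, Mt2 higher and not called, and both signs turned with the covariate within 24 h, where Mt1 was 0.24. At 48 h Mt2 medians were 14.5 CPM in sham and 17.1 CPM in UNx (0.013, SE 0.19, adjusted p = 0.963). At 72 h levels were 8.37, 17.2 and 28.5 CPM in sham and 8.57, 10.1 and 13.2 CPM in UNx, and all 6 UNx libraries were below the sham mean (-0.70, SE 0.24, adjusted p = 0.156). The promoter windows of the 2 genes are shown as sequence, and their part in the values was not tested. Capitals mark the pattern searched for the core of the metal response element, TGCNCNC with any base at N, on either strand. Both lie on the plus strand, at chr8:94172368-94172617 (Mt2) and chr8:94178839-94179088 (Mt1), in GRCm38.p6.
Mt2: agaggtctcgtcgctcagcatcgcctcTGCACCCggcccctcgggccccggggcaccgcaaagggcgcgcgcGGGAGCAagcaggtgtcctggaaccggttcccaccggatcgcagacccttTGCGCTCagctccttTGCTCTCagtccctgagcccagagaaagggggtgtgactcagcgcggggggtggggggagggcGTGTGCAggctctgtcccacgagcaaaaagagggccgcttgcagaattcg
Mt1: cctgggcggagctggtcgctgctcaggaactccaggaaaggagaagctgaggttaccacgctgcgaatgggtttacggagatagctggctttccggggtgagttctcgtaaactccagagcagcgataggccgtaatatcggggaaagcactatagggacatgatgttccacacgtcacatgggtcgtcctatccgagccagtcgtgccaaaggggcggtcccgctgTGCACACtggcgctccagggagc
The Mt2 window held 5 matches and the Mt1 window 1. These counts depend on where the annotated start site lies, and bases outside the windows were not searched. Of all windows searched 44.4% held at least 1 match and 1.28% held 4 or more.

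Dusp1 encodes a phosphatase that inactivates MAP kinases and carries part of the anti-inflammatory action of glucocorticoids. At 24 h it was at 20.1, 23.5 and 30.6 CPM in sham and 14.1, 18.2 and 20.0 CPM in UNx, and the groups did not overlap. Dusp1 fell by 0.41 in log2 units (edgeR, SE 0.099, adjusted p = 0.00676), against -0.17 with the covariate (SE 0.17, adjusted p = 0.582). At 48 h it was at 18.6, 20.6 and 24.8 CPM in sham and 18.5, 26.8 and 38.3 CPM in UNx. UNx replicates 2 to 5 were above the highest sham, and replicates 1 and 6 were not. The value was 0.35 (SE 0.16, adjusted p = 0.104, edgeR) and passed without UNx replicate 1 (0.439, adjusted p = 0.0417) or 6 (0.453, adjusted p = 0.0272), but it was -0.15 with the covariate and -0.14 with UNx replicate 6 alone. At 72 h medians were 16.1 CPM in sham and 18.3 CPM in UNx (0.13, SE 0.14, adjusted p = 0.674).

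Errfi1, also called MIG6, encodes an inhibitor of the epidermal growth factor receptor. At 24 h it was at 301, 374 and 428 CPM in sham and 312, 335 and 416 CPM in UNx (-0.081, SE 0.094, adjusted p = 0.556). At 48 h it was at 211, 280 and 343.6 CPM in sham and 344.2, 376 and 392 CPM in UNx, so the groups did not overlap, by a narrow margin. Errfi1 rose by 0.37 in log2 units at 48 h (edgeR, SE 0.096, adjusted p = 0.00946). The value was 0.30 with the covariate (SE 0.17, adjusted p = 0.393) and 0.27 with UNx replicate 6 alone (SE 0.21, adjusted p = 0.583), and that library was the lowest of its group. At 72 h medians were 246 CPM in sham and 264 CPM in UNx (0.11, SE 0.087, adjusted p = 0.558).

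**Figure D2:**
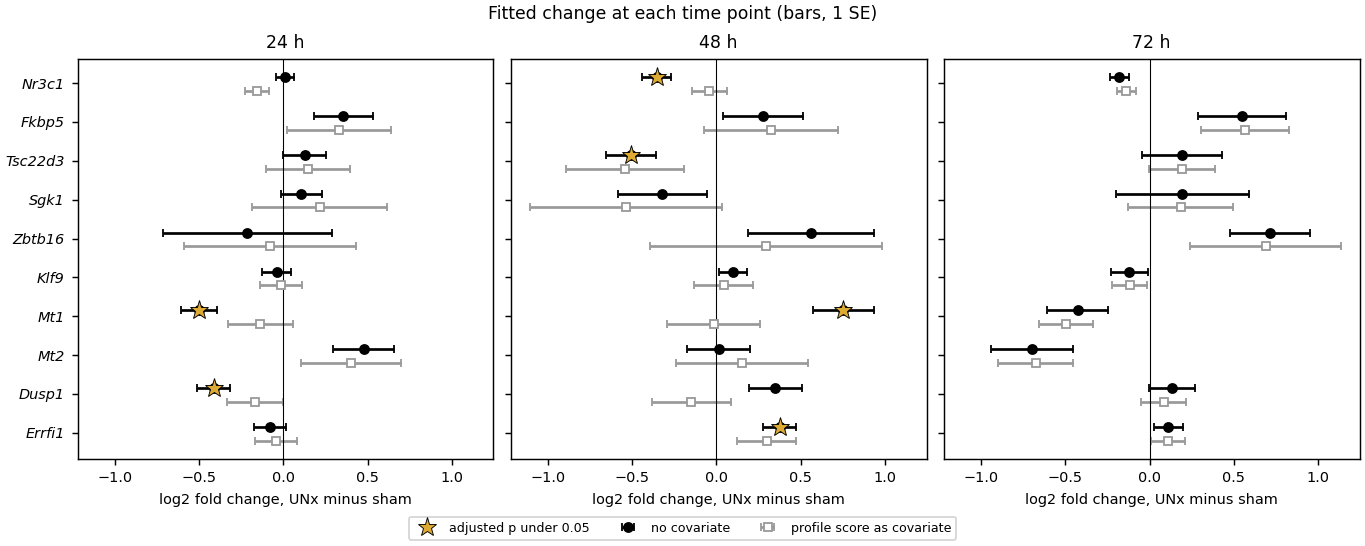
Log2 fold change of UNx against sham (x axis) for each gene at 24, 48 and 72 h, with bars of 1 SE; black points are the fit of the 12 libraries of a time, stars mark an adjusted p under 0.05, and open squares have the profile score as covariate in the fit of 36 libraries. Stars stand on 2 genes at 24 h and 4 at 48 h; of these, Tsc22d3 and Errfi1 at 48 h have the open square near the point, at -0.54 and 0.30.

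**Figure D3:**
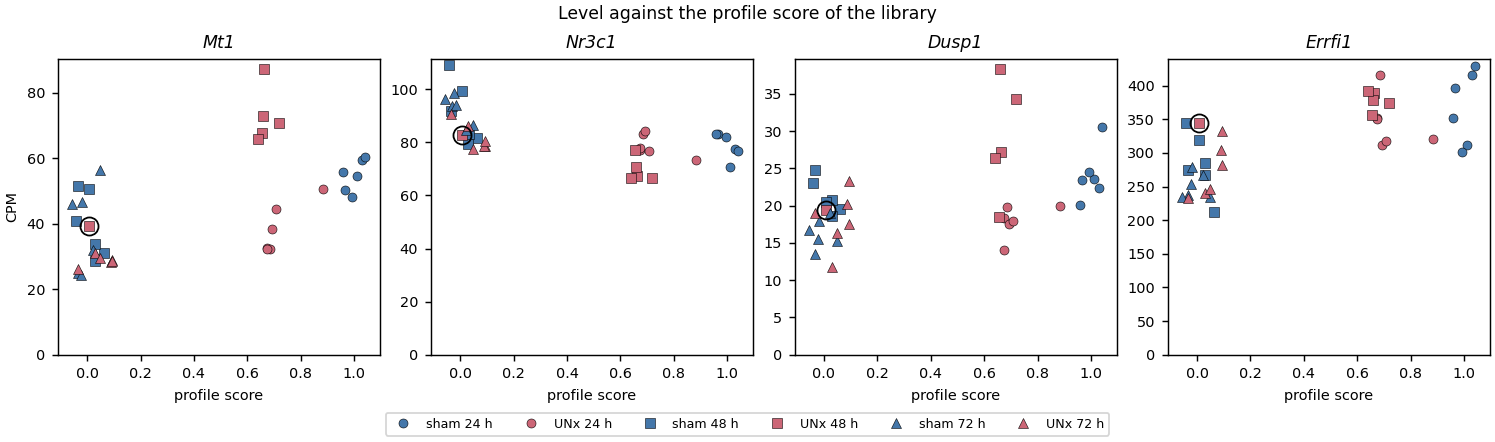
CPM of 4 genes against the profile score in 36 bulk libraries (blue sham, red UNx; circles 24 h, squares 48 h, triangles 72 h; the ring is UNx replicate 6 of 48 h). The squares of UNx replicates 1 to 5 lie at scores of 0.640 to 0.717, where Mt1 reads 65.8 to 87.2 CPM, while UNx circles of 24 h at nearby scores include Mt1 values down to 32.4 CPM.

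The effect of nephrectomy was then compared between times in 1 fit of all 36 libraries. Between 24 and 48 h it differed in 4 of 10 genes, 3 higher and 1 lower at 48 h, where 37% of 15093 genes differed (19.3% higher, 17.7% lower). The log2 differences were 1.28 for Mt1 (SE 0.25, adjusted p = 0.000129), 0.79 for Dusp1 (SE 0.20, adjusted p = 0.00243), 0.48 for Errfi1 (SE 0.14, adjusted p = 0.00662) and -0.33 for Nr3c1 (SE 0.095, adjusted p = 0.00591, all edgeR). Between 48 and 72 h 1 gene differed, Mt1, by -1.19 (SE 0.25, adjusted p = 0.00184), against 14.6% of all genes. Between 24 and 72 h 1 gene differed, Mt2, by -1.15 (SE 0.33, adjusted p = 0.0350), against 4.15% of all genes. With the covariate none of the 10 passed in any of the 3 contrasts, where 0.00663%, 0% and 0.411% of all genes did (24 to 48, 48 to 72 and 24 to 72 h). The Mt2 difference kept its size there (-1.08, SE 0.39, adjusted p = 0.213), whereas those of Mt1, Dusp1 and Nr3c1 between 24 and 48 h became 0.12, 0.019 and 0.12. The Errfi1 difference between 24 and 48 h was 0.34 and that of Mt1 between 48 and 72 h -0.48.

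Other genes of the pathway were taken from lists named in the methods. The background for their counts is the share called over all genes, 27.3% at 24 h, 32.9% at 48 h and 1.71% at 72 h. Of 13 chaperones, co-regulators and enzymes that handle the hormone, 3 rose and 1 fell at 24 h, 4 rose and 2 fell at 48 h, and none was called at 72 h. Ptges3, the Hsp90 co-chaperone p23, was at 60.1 ± 4.62 CPM (SD, n = 6) in sham and 81.8 ± 6.79 CPM in UNx at 24 h (0.46, adjusted p = 0.000261, edgeR) and at 82.7 ± 7.42 and 66.9 ± 13.6 CPM at 48 h (-0.32, adjusted p = 0.0379). Hsp90aa1, which encodes 1 form of Hsp90, rose from 426 ± 104 to 577 ± 63.6 CPM at 24 h. Hsp90ab1, which encodes another form, did not rise then. It was at 1793 ± 309 CPM in sham and 1575 ± 101 CPM in UNx (-0.18, adjusted p = 0.178, edgeR). At 48 h the co-chaperones Stip1 and Fkbp4 rose, by 0.58 and 0.21, and Nr3c2, the mineralocorticoid receptor gene, fell by 0.19. With the covariate none of the called values kept an adjusted p under 0.05. At 24 h Ptges3 was then 0.23 and Hsp90aa1 0.31. At 48 h Ptges3 turned to 0.085, Stip1 was 0.073 and Fkbp4 0.043, while Nr3c2 was -0.27. With UNx replicate 6 alone these 48 h values were 0.17, 0.11, 0.099 and -0.26. The list's median log2 fold change was -0.025, 0.21 and 0.092 at the 3 times, beside 0.0054, -0.040 and -0.0042 over all genes tested.

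Of 26 other genes known to be induced by glucocorticoids, 4 rose and 6 fell at 24 h, 4 rose and 3 fell at 48 h, and 2 rose and none fell at 72 h. Pck1, the rate-limiting enzyme of gluconeogenesis, was higher at all 3 times. It was at 1818 ± 334 and 3042 ± 597 CPM at 24 h, 1337 ± 396 and 2133 ± 490 CPM at 48 h and 1397 ± 438 and 2694 ± 551 CPM at 72 h (sham and UNx, SD, n = 6). Its log2 fold changes were 0.75, 0.66 and 0.94, with adjusted p of 0.00111, 0.0213 and 0.0266 in edgeR. With the covariate they were 0.71, 0.74 and 0.96, with adjusted p of 0.0468, 0.220 and 0.00830. With UNx replicate 6 alone the 48 h value was 0.96. Cdkn1a, a cell cycle inhibitor, rose by 0.70 at 24 h and 0.87 at 72 h, and was called with the covariate as well (adjusted p = 0.0132 and 0.0423). Foxo1, a transcription factor restrained by insulin, fell by 0.35 at 24 h (adjusted p = 0.00133, and 0.0400 with the covariate). Nfkbia, the inhibitor of NF-kappaB, fell by 0.39 at 24 h and 0.39 at 48 h. With the covariate its values were -0.40 and -0.38 and neither was called (adjusted p = 0.0571 and 0.338), and with UNx replicate 6 alone the 48 h value was -0.41. At 48 h Scnn1a, a subunit of the epithelial sodium channel, rose by 0.41 and Sesn1, a stress-induced sestrin, fell by 0.46, with -0.050 and -0.15 under the covariate and -0.058 and -0.18 with UNx replicate 6 alone, so neither call held under the covariate. The list's medians were -0.10, -0.024 and -0.062.

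The lists next to single members were small. Of 4 tested genes of metal handling, Slc30a1, a zinc exporter, fell by 0.44 at 48 h (adjusted p = 0.000526), and none was called at 24 or 72 h. Slc30a1 was -0.34 with the covariate (adjusted p = 0.247) and -0.34 with UNx replicate 6 alone. Of 12 tested early response genes, 3 rose at 24 h, the lowest p being those of Ier3, which restrains cell death, and the stress-induced factor Atf3. Ier3 went from 14.6 ± 4.53 to 23.0 ± 4.49 CPM (0.66, adjusted p = 0.0131, and 0.0144 with the covariate). Atf3 rose by 0.75 (adjusted p = 0.0226) and was 0.74 with the covariate (adjusted p = 0.0824). At 48 h only Junb was called, and it was higher (0.42, adjusted p = 0.0486), against 0.40 with the covariate (adjusted p = 0.516) and 0.29 with UNx replicate 6 alone. Of 7 tested genes of epidermal growth factor signalling, the receptor genes Erbb3 and Erbb2 fell by 0.59 and 0.33 at 24 h, and Egf, the ligand made by the distal nephron, fell by 0.34 at 48 h. With the covariate Erbb3 was called too (-0.75, adjusted p = 0.00980), Erbb2 was not (-0.32, adjusted p = 0.102), and Egf was -0.080 (adjusted p = 0.815). With UNx replicate 6 alone Egf was -0.043.

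Across mice the members fell into more than 1 pattern. After each group's mean was taken out of log2 CPM, Tsc22d3 and Sgk1 had a Pearson correlation of 0.81 (Spearman 0.733) over 36 libraries. Of the 15093 genes tested, Sgk1 was the one most like Tsc22d3, followed by Ppp4r2 (0.744), Sltm (0.726), Ryk (0.704) and Rasgef1b (0.704). Without the 2 libraries farthest from the median of Tsc22d3, UNx replicate 6 and sham replicate 5 of 72 h, the value was 0.729. It was 0.537 over the 12 libraries of batch 1 and 0.867 over the 24 of batch 2. In 5 of the 6 groups it was between 0.818 and 0.892, and in UNx of 24 h it was -0.111. The correlation of Fkbp5 was -0.254 with Tsc22d3, -0.374 with Sgk1 and 0.492 with Zbtb16. That with Tsc22d3 was 0.407 in batch 1 and -0.428 in batch 2, and -0.0629 without the 2 libraries farthest from the median of Fkbp5. That with Sgk1 was -0.304 in batch 1 and -0.394 in batch 2, and -0.234 without those 2 libraries. The genes most like Fkbp5 were Dync1li1 (0.849), Nt5e (0.812), Rad54l2 (0.797), Ttll4 (0.795) and Ugt8a (0.794). Mt1 and Mt2 correlated at 0.588 over all libraries, with -0.0756 in batch 1 and 0.754 in batch 2. Within batch 2 the value was 0.973 and 0.954 in sham of 48 and 72 h, 0.59 in UNx of 72 h and -0.00273 in UNx of 48 h. These are descriptions over 36 libraries, which share their labelled batch within times and differ in depth.

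**Figure D4:**
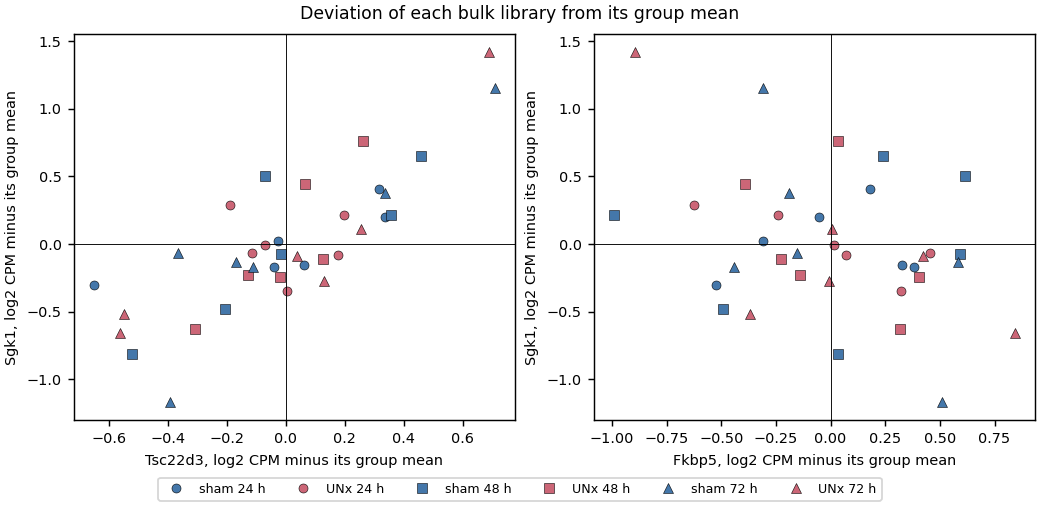
Deviation of each of 36 bulk libraries from its group mean (log2 CPM), Sgk1 on the y axes against Tsc22d3 (left) and Fkbp5 (right); blue sham, red UNx, circles 24 h, squares 48 h, triangles 72 h. The left points rise together (0.81), with the 72 h libraries spread widest, and the right points do not (-0.374).

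The nuclei placed the genes in cell classes, here those of the authors' annotation, named below by its labels. The summed markers of the S1 and S3 segments, the thick limb, the distal convoluted and connecting tubules, intercalated cells, endothelium and fibroblasts peaked in the class of that name. Those of the S2 segment summed to 1605 CPM in a class left unnamed here and to 1538 CPM in PTS2, so S2 below means the class labelled PTS2. Thin limb markers summed highest in MPC, principal cell markers in CPC, and mural markers outside the class labelled Per, so Per, MPC, ATL, Uro and MD are given as labels only. The table held 16500 nuclei in 30 classes, of which 23 had at least 10 nuclei in every mouse, and 18 cell barcodes occurred in more than 1 sample. Counts were summed per mouse and class, and CPM is relative to the UMIs of that sum. Nr3c1 was read in all 23 classes. Its mean was highest in fibroblasts (216 to 407 CPM over 4 mice), then endothelial cells EC1 (173 to 322 CPM) and S2 (212 to 272 CPM), whose ranges overlap, and lowest in the connecting tubule (25.8 to 119 CPM).

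Errfi1 was highest in S1 (1588 to 2180 CPM) and S2 (1236 to 1936 CPM) and in fibroblasts (834 to 1208 CPM), and lower in S3 (496 to 826 CPM). Klf9 was also highest in S1 (193 to 315 CPM) and S2 (155 to 259 CPM), which overlap, and lowest in Uro (19.9 to 104 CPM). Zbtb16 was, unlike these genes, low in S2, at 1.40 to 8.79 CPM. It was highest in Per (140 to 255 CPM), where Klf9 was high as well (144 to 227 CPM). Sgk1 was highest in MPC (155 to 367 CPM) and next in ATL (125 to 249 CPM) and Uro (97.3 to 265 CPM), with overlapping ranges, and was at 4.23 to 32.8 CPM in S1. Tsc22d3 shared some but not all high classes with Sgk1. Its mean in ATL was below those in S1, S2 and S3, but it was at 60.1 to 272 CPM in Per and 112 to 189 CPM in MPC. Fkbp5 had no such peak: its highest mean was in fibroblasts (116 to 305 CPM), next to the distal convoluted tubule (135 to 259 CPM). Mt1 was highest in MD (61.1 to 123 CPM), then DTL2 (13.7 to 225 CPM) and the thick limb class CTAL1 (64.7 to 96.3 CPM), with overlapping ranges. Mt2 was at most 23.5 CPM in any class and mouse, and Dusp1 was highest in Per (26.7 to 107 CPM). The order of classes was computed on all 4 mice, and in the sham mice alone 7 of the 10 genes had the same highest class.

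Between UNx and sham, none of the 10 genes was called in summed nuclei, where edgeR called 0% of 19975 genes, with 360 at an unadjusted p below 0.05. None of 188 tested pairs of gene and class was called either, with 3 at an unadjusted p under 0.05, and no gene was called in any of the 23 classes. These 3 pairs were in S2, S3 and DTL2. There 336 of 14293, 250 of 14816 and 34 of 4817 genes had an unadjusted p under 0.05. With 2 mice a group and no term for the labelled batch, this test had little power. On simulated counts it called 0% of 4-fold changes in summed nuclei and in S1. Their spread was taken from the fit without that term, so it included the batch difference. The replicate number is the labelled batch and pairs the mice. With it as a block 1.04% of 19975 genes were called in summed nuclei, with no member among them, and 3 pairs of gene and class were called. Fkbp5 in S3 was at 64.6 and 116 CPM in sham and 38.8 and 49.6 CPM in UNx (batches 3 and 4). There it fell by 0.98 (SE 0.16, adjusted p = 0.00828, edgeR with the block), when 2.47% of genes were called in this class. Without the block and without 1 mouse at a time, the value was between -1.34 (without sham replicate 1) and -0.565 (without sham replicate 2), and none of these was called. Zbtb16 was at 32.3 and 56.0 CPM in sham and 62.3 and 114 CPM in UNx in CTAL1 and rose by 1.03 (SE 0.23, adjusted p = 0.0292), against 0.652% of genes. In the connecting tubule it was at 43.1 and 94.7 CPM in sham and 13.9 and 38.5 CPM in UNx and fell by 1.35 (SE 0.29, adjusted p = 0.0254), against 0.458% of genes.

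The direction within each batch was then counted over classes. Classes of 1 mouse share its library and are not replicates of each other, so these are counts with no test, and no share over all genes was computed beside them. Klf9 was lower in UNx in both batches in 12 of 22 classes and higher in both in 0. In all nuclei it was at 210 and 187 CPM in sham and 127 and 170 CPM in UNx (batches 3 and 4), a log2 ratio of -0.73 in batch 3 and -0.14 in batch 4. Fkbp5 was lower in both batches in 12 of 21 classes and higher in both in 1, but in all nuclei its log2 ratio was 0.28 in batch 3 and -0.99 in batch 4. Tsc22d3 was higher in both batches in 9 of 19 classes and lower in both in 2. Errfi1 was higher in both in 11 of 22 classes and lower in both in 3. Mt1 was lower in both in 11 of 21 classes and higher in both in 1, and Dusp1 was lower in both in 8 of 13 and higher in both in 0. The counts lower and higher in both were 8 and 6 of 23 for Nr3c1, 6 and 2 of 19 for Sgk1, 4 and 9 of 20 for Zbtb16 and 4 and 1 of 7 for Mt2. In S2 Errfi1 was at 1236 and 1261 CPM in sham and 1936 and 1849 CPM in UNx, log2 ratios of 0.65 and 0.55 (unadjusted p = 0.0299 without the block, adjusted p = 1.00, edgeR). With the block its log2 fold change was 0.61 (SE 0.17, adjusted p = 0.082, edgeR), not called.

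For Errfi1 and Mt1 the labelled batches differed by more than the groups. Outside the proximal tubule, the median ratio of batch 4 over batch 3 for Errfi1 was 4.37 in sham and 5.53 in UNx, so its median level over these classes went from 71.2 to 396 CPM in sham and from 82.9 to 511 CPM in UNx. In S1 the same ratio was 0.728 and 1.01. For Mt1 the median ratio outside the proximal tubule was 2.20 in sham and 2.21 in UNx, and it was larger in the proximal tubule, at 5.67 and 5.95 in S1, 7.03 and 7.77 in S2 and 6.51 and 7.93 in S3. Other members differed between batches in several classes, some of them in the proximal tubule. For Sgk1 the ratio was 11.0 in sham and 6.16 in UNx in CTAL2. It was 5.78 and 3.78 in the distal convoluted tubule and 4.40 and 5.74 in S2. For Fkbp5 in MPC it was 5.36 and 4.76. For Zbtb16, which was low there, it was 5.01 and 4.72 in S1, 5.56 and 3.26 in S2 and 16.3 and 9.01 in S3. Median ratios outside the proximal tubule were smaller. They were 1.6 and 1.3 for Sgk1, 1.2 and 0.89 for Fkbp5 and 1.22 and 1.58 for Zbtb16. RNA released from other cells and caught in droplets can read as expression in a class, and its part in these levels was not tested.

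**Figure D5:**
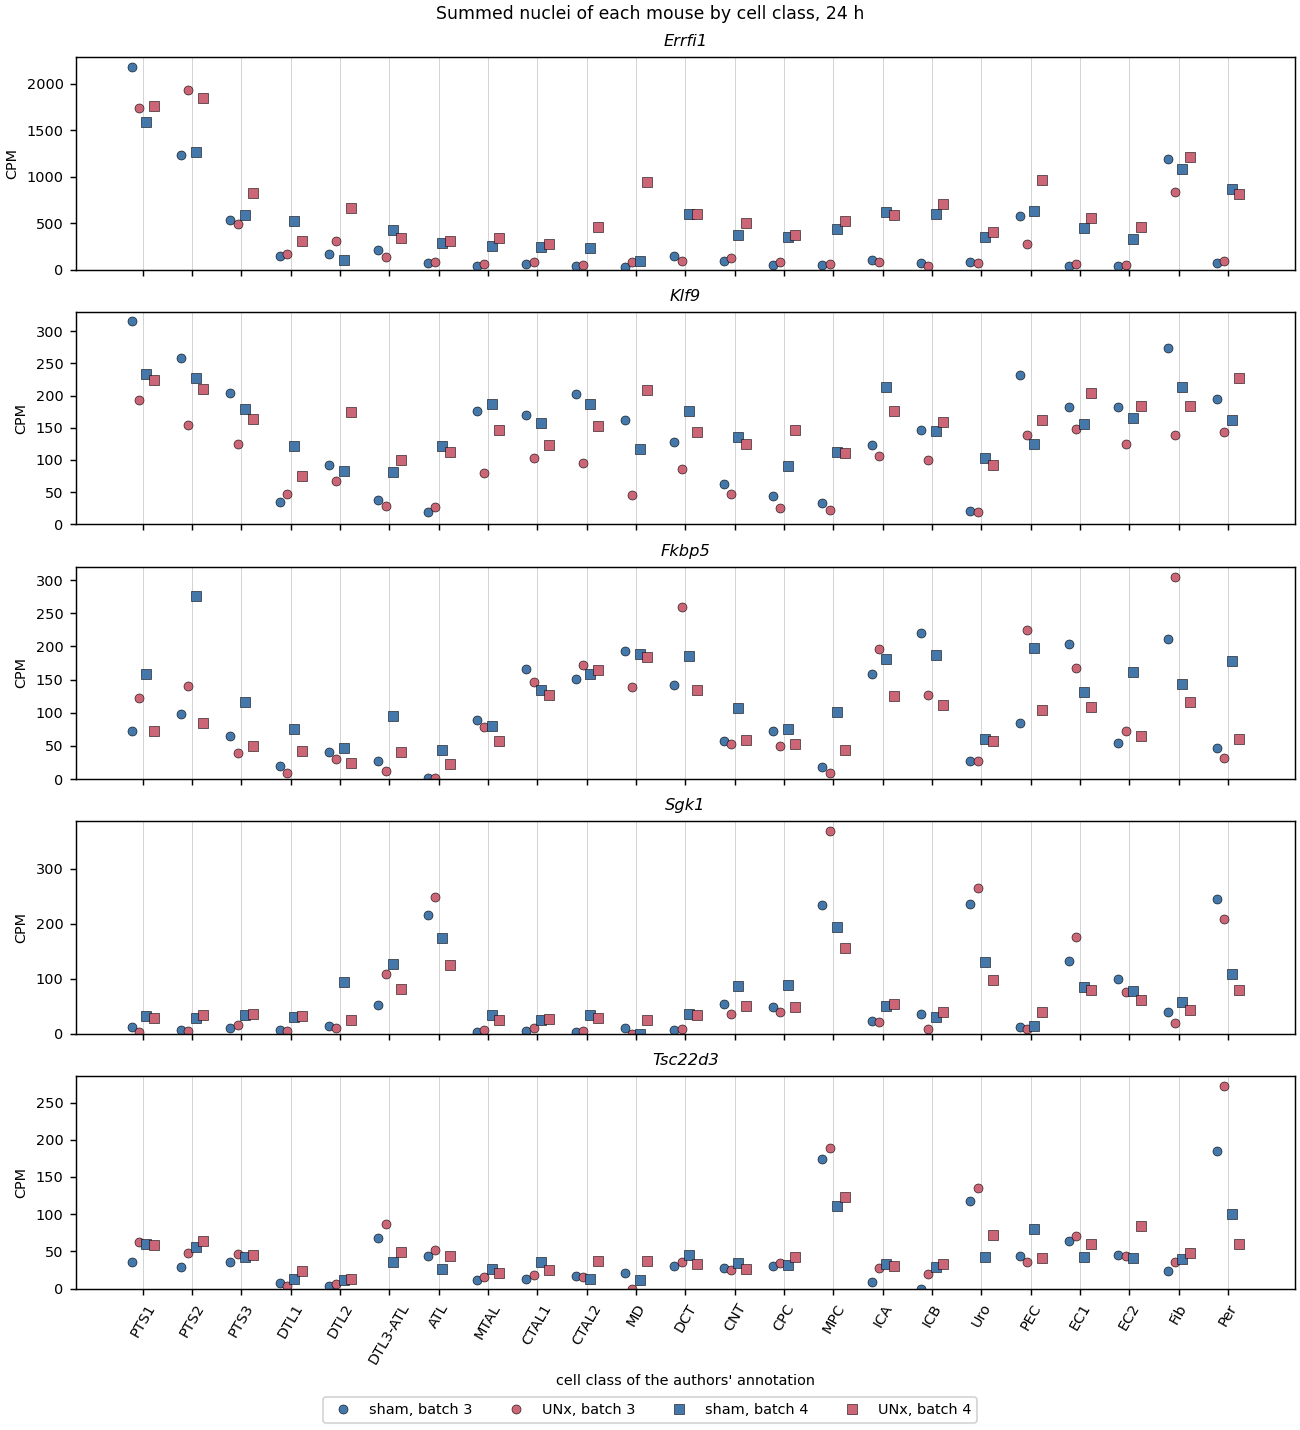
CPM of 5 genes in the summed nuclei of each of 4 mice (y axes) by cell class (x axis) at 24 h; blue sham, red UNx, circles batch 3, squares batch 4. Errfi1 squares lie above circles in most classes outside the proximal tubule (PTS1 to PTS3), and Sgk1 and Tsc22d3 share high values in MPC, Uro and Per.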

How the data were processed

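Bulk RNA-seq of 36 libraries and single-nucleus RNA-seq of 4 were used. Per the submitters' processing notes, the names given for bulk libraries are GRCm39, Salmon 1.5.0, FastQC 0.11.8 and R 4.10, and for nuclei alevin, Seurat and mm10, with no role stated. The authors deposited estimated counts per gene, of which 32.4% of the values were not whole in bulk and 13.8% in nuclei (tolerance 0.001), and these were rounded here. Depth was 14.9 M to 24.1 M counts per bulk library. The nucleus table held nuclei with at least 1755 UMIs, and doublet treatment is not given in the sources used here. No column was left without a sample. GENCODE M21 gave symbols for 28340 of 28467 bulk genes.

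Genes with low counts were removed with filterByExpr, libraries were scaled by TMM, and groups were compared with the quasi-likelihood F test of edgeR 4.0.16 (R 4.3.3), two-sided, with Benjamini-Hochberg adjustment over all genes tested. DESeq2 1.42.0, limma 3.58.1, other scalings and filters, the profile score, a replicate block and leaving out each library were alternatives. In nuclei, counts were summed per mouse, and per mouse and class where every mouse had at least 10 nuclei (23 of 30 classes). Each library came from a different mouse, per the labels. Replicate numbers did not pair bulk samples (correlation of deviations -0.285 to 0.135). In nuclei they are the labelled batch, and same-numbered mice correlated at 0.806. On simulated counts the bulk test called 91%, 84% and 87% of 2-fold changes at 24, 48 and 72 h.

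The 10 genes and the lists were chosen with earlier results of these data known. All 10 genes were described, and from each list the called genes with the lowest p, at most 2 in each direction and time. Hsp90ab1 is given as well, beside Hsp90aa1. A called gene of the first list is not reported here. The lists hold 13 partners of the receptor and enzymes of the hormone, 26 other induced genes, 7 genes of metal handling, 13 early response genes and 8 of epidermal growth factor signalling, and the likeness lists give the 5 genes with the highest correlation. Fold changes are log2 values, UNx minus sham.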

Additional observations from a re-analysis of the deposited data

Results flagged for a closer look

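In 3 of 60 groups of 6 libraries 1 library stood far from the others of its group (gap to the nearest over the range above 0.625), and chance does so in about 1 in 20 groups. Sgk1 was at 170 CPM in UNx replicate 6 of 72 h, where the other 5 were at 40.1 to 68.6 CPM. Zbtb16 was at 7.5 CPM in UNx replicate 3 of 48 h, where the others were at 1.5 to 3.36 CPM, and at 7.69 CPM in sham replicate 1 of 24 h, where the others were at 1.06 to 1.59 CPM.

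The effect of nephrectomy differed between times in 6 of 30 tests in edgeR (log2 differences). From 24 to 48 h it differed by 1.28 for Mt1, 0.791 for Dusp1, 0.485 for Errfi1 and -0.334 for Nr3c1. From 48 to 72 h it differed by -1.19 for Mt1, and from 24 to 72 h by -1.15 for Mt2. With the profile score as a covariate 0 of the 30 passed, and the contrasts against 24 h also compare labelled batches.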

How the results depend on the processing

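Of 816 alternative fits of 67 single values, 747 kept direction and side of the threshold, 19 lost the call, 16 gained it and 34 changed sign. With the profile score as a covariate the number of members called was 0 at 24 h and 0 at 48 h, both within a time and over 36 libraries, and 0 for differences between times, and with UNx replicate 6 alone at 48 h it was 0. At 72 h limma voom called 1. Leaving out a library gave 2 to 3 calls at 24 h, 4 to 5 at 48 h and 0 to 1 at 72 h (Zbtb16 without UNx replicate 2, Nr3c1 without UNx replicate 6), and 0 to 2 called pairs in nuclei. The replicate block called 3 pairs in nuclei. In bulk, where the numbers do not pair mice, the block left 6 differences between times but moved Mt2 from 24 to 72 h to -1.09 (adjusted p = 0.114) and called Tsc22d3 from 24 to 48 h (-0.60, adjusted p = 0.0407). Signs changed as follows. At 24 h Nr3c1 was -0.00374 in the fit of 36 libraries, and with the score -0.215 (12 libraries) and -0.157 (36). Also at 24 h, with the score, Zbtb16 was 0.485, Mt1 0.238 and Mt2 -0.436, and with the block Zbtb16 was 0.0984. At 48 h Mt1 was -0.0159 with the score over 36 libraries and -0.0185 with UNx replicate 6 alone, and Dusp1 was -0.113, -0.149 and -0.136 with the score in 12 and 36 libraries and with replicate 6 alone. At 72 h Errfi1 was -0.0409 with the score. Differences with the score were 0.115 (Nr3c1, 24 to 48 h), -0.0964 (Nr3c1) and 0.233 (Dusp1) from 48 to 72 h, and 0.019 (Nr3c1), -0.0318 (Sgk1) and -0.361 (Mt1) from 24 to 72 h, and with the block 0.0174 (Fkbp5, 24 to 48 h). Leaving out a library gave -0.0201 to 0.0283 for Nr3c1, -0.505 to 0.705 for Zbtb16 and -0.0905 to 0.0478 for Klf9 at 24 h, -0.0674 to 0.143 for Mt2 at 48 h and -0.274 to 0.514 for Sgk1 at 72 h. Fkbp5 in all nuclei ranged from -0.71 to 0.172, the latter without sham replicate 2. The cause was not tested. With 2 mice a group and no block, the nucleus test had little power, and its power with the block was not simulated.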
